A study of Mus musculus with 18 samples.

Results

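The synaptic vesicle release genes are 46 genes of the presynaptic terminal, chosen by gene symbol from the 55487 genes of a count table of mouse frontal cortex. They encode the SNAREs that fuse the vesicle with the plasma membrane, the proteins that disassemble them, and the complexins. They also encode synaptotagmins, Doc2 proteins and rabphilin, the active zone and priming proteins, the Rab3 GTPases and the synapsins. The rest encode vesicle membrane proteins, the vesicular glutamate transporters, endocytosis proteins and β-synuclein. Each symbol matched exactly 1 gene, and all 46 passed the filter on low counts, which left 17414 genes. The table holds bulk mRNA sequencing of 18 mice, 9 to 10 months old, in 3 groups that each held 3 females and 3 males. Total counts ran from 15925432 to 21030935 per mouse, and the mean count of a member ran from 239 for Cplx3 to 41370 for Snap25.

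APP/PS1 mice carried the transgenes of the double transgenic line of that name, a model of amyloid deposition. APP/PS1/FTnKO mice carried the same transgenes and a CamKIIα-Cre transgene that deletes the floxed β-subunit of farnesyltransferase (FT, gene Fntb) in forebrain neurons after birth, so glia and neurons without Cre kept the enzyme. By the study's breeding scheme all 3 groups were homozygous for the floxed allele, the APP/PS1 and WT mice without Cre and the WT mice also without the amyloid transgenes, whereas the deposited design describes the WT mice as C57BL/6J. The 3 groups were compared to ask how loss of neuronal FT bears on the transcriptome of the amyloid model, and here the question is put to the release machinery. In bulk tissue, fewer cells of a type and less RNA per cell cannot be told apart.

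Neurotransmitter is released when a vesicle docks at the active zone, is primed by Munc13 and RIM proteins, and fuses through SNARE proteins when calcium binds synaptotagmin, with complexin holding the primed complex. Bassoon and piccolo are the giant scaffolds of the active zone, synapsins tether the reserve pool, and dynamin, amphiphysin and synaptojanin recover the membrane. Rab proteins of vesicles are held in the membrane by geranylgeranyl groups, and complexin 3 ends in a farnesylation motif. RNA levels do not measure either lipid group.

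The targeted gene was examined first. Fntb had 14.1, 16.9, 16.8, 32.2 and 30.8 normalized counts per 1000000 counted reads (CPM) in WT mice 18944, 19053, 19101, 19718 and 19721, and 37.9 in WT mouse 19622. The APP/PS1 mice had a lowest, median and highest of 14.2, 15.8 and 32.1, and the APP/PS1/FTnKO mice had 7.84, 12.6 and 14.7. The control mice thus fell into a lower set near the knockout range and a higher set of 5 mice at 28.7 or more, and the knockout group overlapped both control groups. The labels do not give the floxed alleles of single mice, so whether the lower and higher sets differed in them is not known here. Fntb did not pass the test in APP/PS1/FTnKO against APP/PS1 (log2 fold change -0.77 ± 0.26 SE, adjusted p = 0.251, edgeR) or against WT (-0.93 ± 0.27, adjusted p = 0.0658, edgeR).

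WT mouse 19622 was treated apart by the plan of the tests. The study also left a WT sample out of its tests as an outlier, without naming the mouse. The library of mouse 19622 went against its frontal cortex label. Its summed level of 9 cerebellar markers was 3420 CPM, against 32.1 to 65.4 in the other 17 mice, and that of 8 cortical excitatory neuron markers was 288 against 3340 to 5730. Emx1 was at 0 in it, whereas Neurod2 of the same list was above the other mice, at 76.2 CPM against 30.8 to 57.3. The other markers of that list lay below the range of the other 17 mice. Unless another setting is named, tests used the other 17 mice (5 WT, 6 APP/PS1, 6 APP/PS1/FTnKO), with p-values adjusted over all 17414 genes. RNA integrity numbers (RIN) were 8.5 to 8.8 for the WT mice, 7.7 to 8.7 for APP/PS1 and 7.6 to 8.7 for APP/PS1/FTnKO.

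Upstream sequences are shown for the 5 members that passed a test in a genotype comparison. They are Rims1 (ENSMUSG00000041670, gene model at chr1:22286251-22805994, minus strand), Rims3 (ENSMUSG00000032890, chr4:120854816-120896579, plus), Bsn (ENSMUSG00000032589, chr9:108096022-108190384, minus), Cplx2 (ENSMUSG00000025867, chr13:54371349-54383917, plus) and Slc17a7 (ENSMUSG00000070570, chr7:45163949-45176142, plus), by GENCODE M21 on GRCm38. Each stretch holds the 150 bases before the RefSeq start (GRCm38.p6), 5′ to 3′ on the gene's strand, with GC boxes (GGGCGG on either strand, adjoining matches run together) in capitals. The coordinates are chr1:22806159-22806308 for Rims1, chr4:120854649-120854798 for Rims3, chr9:108190384-108190533 for Bsn, chr13:54302406-54302555 for Cplx2 and chr7:45163771-45163920 for Slc17a7. For Cplx2 the RefSeq start lies upstream of the GENCODE gene model.
Rims1: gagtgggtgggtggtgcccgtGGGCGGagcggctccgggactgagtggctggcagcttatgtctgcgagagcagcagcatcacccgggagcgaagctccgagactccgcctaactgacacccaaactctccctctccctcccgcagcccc
Rims3: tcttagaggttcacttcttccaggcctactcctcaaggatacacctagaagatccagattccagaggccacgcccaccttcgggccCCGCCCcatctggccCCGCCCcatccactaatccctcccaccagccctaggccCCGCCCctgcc
Bsn: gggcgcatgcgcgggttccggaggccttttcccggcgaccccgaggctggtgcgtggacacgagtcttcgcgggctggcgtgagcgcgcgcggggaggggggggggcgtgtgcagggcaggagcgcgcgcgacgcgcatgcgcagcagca
Cplx2: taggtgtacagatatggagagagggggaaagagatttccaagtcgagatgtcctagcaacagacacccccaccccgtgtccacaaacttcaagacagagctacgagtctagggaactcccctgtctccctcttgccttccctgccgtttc
Slc17a7: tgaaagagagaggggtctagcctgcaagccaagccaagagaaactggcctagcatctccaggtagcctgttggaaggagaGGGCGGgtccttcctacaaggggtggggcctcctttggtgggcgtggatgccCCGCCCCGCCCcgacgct

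Of the 46 members, 36 had a RefSeq window of 250 bases before to 50 bases after the start, and all shares are over these. A GC box was found in 27 of them (75%), against 61.9% of the 12340 tested genes with a window and 36% of all 27025 windows. The cyclic AMP response element TGACGTCA was found in 2 (5.56%, Napa and Syn1), against 3.06% and 1.87%. The TATA box TATAAA was found in 2 (5.56%, Rab3b and Sv2b), against 7.44% and 14.2%. Both strands were searched. The median GC content of the member windows was 62.3%, against 60.7% of the tested genes, and the median ratio of observed to expected CpG was 0.712 against 0.739. By these measures the members' promoters lay near those of other genes expressed in cortex, with Rims1, Rims3 and Slc17a7 among those holding a GC box and Bsn and Cplx2 among those without.

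The members spanned a wide range of levels in WT cortex. Per kilobase of annotated exon, Snap25, the plasma membrane SNARE, was highest at 342 CPM per kb, followed by Cplx2 at 307, Cplx1 at 280 and Vamp2, the main vesicle SNARE, at 252. The lowest were Syn3 at 1.24, the vesicular glutamate transporter Slc17a6 at 3.00, Cplx3 at 4.10, Erc1 at 4.16 and Unc13b at 4.24 CPM per kb. In all, 15 members were above 100 CPM per kb and 6 were under 10. No member moved by more than 5 places in this order between genotypes.

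**Figure D1:**
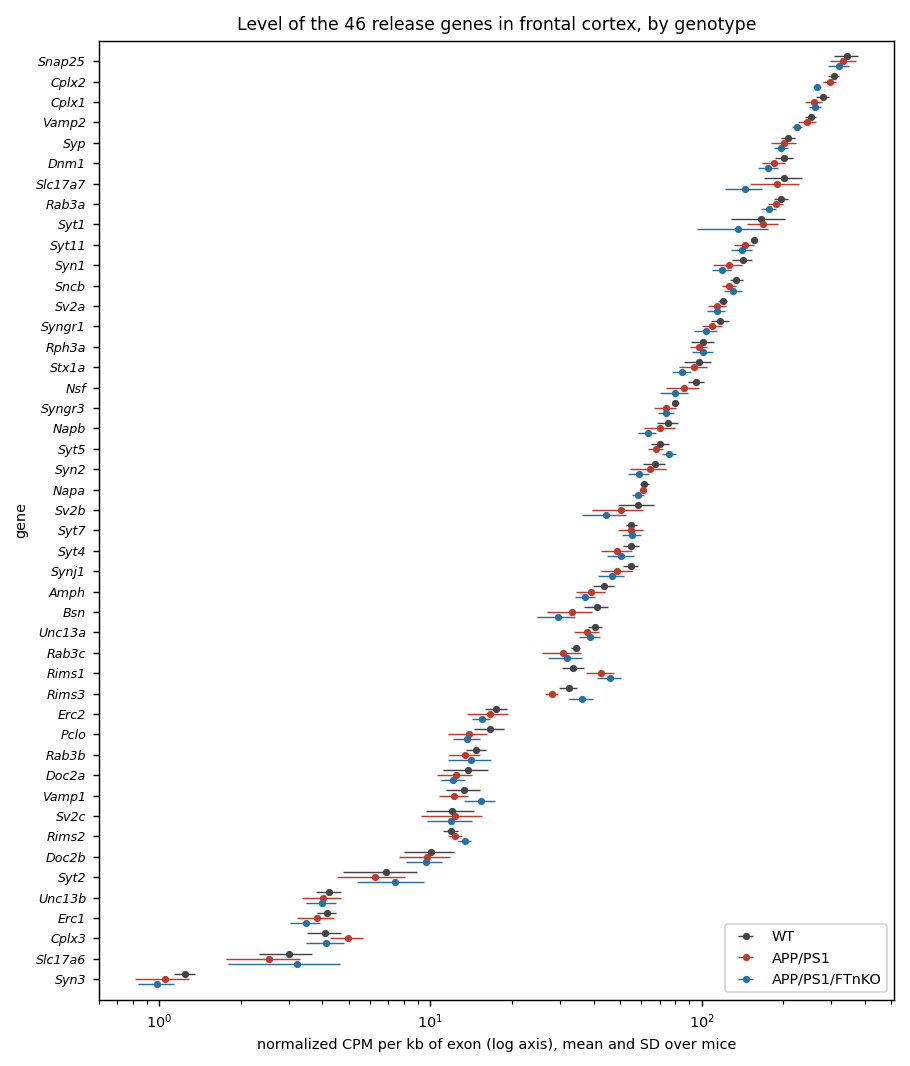
Mean level of each of the 46 genes in normalized CPM per kb of exon (log axis), with the SD over mice as bars, for 5 WT, 6 APP/PS1 and 6 APP/PS1/FTnKO mice. Genes are ordered by their WT level from Syn3 at 1.24 to Snap25 at 342, and for most genes the bars of the genotypes overlap.

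Paired family members showed which form dominated in cortex, again per kilobase. Syt2, the fast calcium sensor of hindbrain and inhibitory terminals, made up 4.33% ± 2.18 (SD, n = 5) of the sum of Syt1 and Syt2 in WT. The share was 3.65% ± 1.20 (n = 6) in APP/PS1 and 5.80% ± 3.07 (n = 6) in APP/PS1/FTnKO mice. Vamp1 made up 5.04% ± 0.839 of Vamp1 and Vamp2 in WT, 4.78% ± 0.730 in APP/PS1 and 6.41% ± 0.945 in APP/PS1/FTnKO mice. Slc17a6 made up 1.52% ± 0.495 of both glutamate transporters in WT, 1.38% ± 0.598 in APP/PS1 and 2.30% ± 1.33 in APP/PS1/FTnKO mice. In each of these 3 pairs the minor form had its highest mean share in the knockout, with a range there that overlapped the ranges of both other groups. Of 8 pairs examined, 6 had the highest mean share in the knockout, the others being Cplx1 of Cplx1 and Cplx2 (49.6%), Rab3b of Rab3a and Rab3b (7.38%) and Sv2c of Sv2b and Sv2c (21.4%). The remaining 2 had their lowest mean share there. Erc1 made up 19.2% ± 0.409 of Erc1 and Erc2 in WT, 18.8% ± 1.41 in APP/PS1 and 18.4% ± 1.28 in APP/PS1/FTnKO mice. Unc13b made up 9.47% ± 0.547, 9.60% ± 0.998 and 9.33% ± 0.999 of Unc13a and Unc13b in the same order.

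Variation between mice was small for most members. The coefficient of variation over the 17 mice had a median of 12% and ran from 4.36% for Napa, the adaptor αSNAP, to 34.9% for Slc17a6. It was above 20% for 7 members, among them Syt2 at 27.8%, Syt1 at 22.6%, Slc17a7 at 22.2% and Bsn at 20.1%. Mice also differed across the members together. WT mouse 19718 (RIN 8.7) was the highest of the 17 for 21 members. APP/PS1/FTnKO mouse 16974 (RIN 7.6) and APP/PS1 mouse 16975 (RIN 7.7), which had the lowest RIN of the series, were each the lowest of the 17 for 10 members.

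In APP/PS1 against WT cortex, which asks how the amyloid transgenes bear on the release genes, 1 of 46 members passed the test, Rims1. It rose. If the WT mice were as the deposited design describes, strain and floxed alleles cannot be told apart from the transgenes here. RIN was also lower in some APP/PS1 mice than in any WT mouse. All genes tested gave 1.5% past the threshold in either direction, 1.32% higher and 0.178% lower. Of the members, 41 of 46 had a log2 fold change below 0, against 50.6% of all genes, and their median was -0.09 against -0.0023 for all genes. Unadjusted p was below 0.05 for 6 members (13%), 2 higher and 4 lower, against 14% of all genes, of which 7.91% were higher and 6.05% lower. No member had groups that did not overlap, against 1.71% of genes higher and 0.695% lower.

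Rims1 encodes RIM1, the active zone scaffold that binds Rab3 and recruits Munc13 and calcium channels. Its level was 231, 268, 259, 265 and 218 CPM in WT mice 18944, 19053, 19101, 19718 and 19721. In APP/PS1 mice the lowest, median and highest were 257, 308 and 357 CPM. The lowest APP/PS1 mouse lay inside the WT range and the other 5 lay above it. The log2 fold change was 0.34 ± 0.08 SE (1.27-fold, adjusted p = 0.0408, edgeR), with 0.23 in females and 0.43 in males as log2 ratios of means. The log2 fold change was 0.32 with RIN as a covariate (adjusted p = 0.227, edgeR) and 0.30 among mice with a RIN of at least 8 (adjusted p = 0.255, edgeR), so the call was lost at a similar size. The adjusted p was 0.0571 without the sex term and 0.00415 by DESeq2. It was also above 0.05, between 0.0523 and 0.131, when any 1 of 11 mice was left out, which were WT mice 18944, 19101, 19718 and 19721, APP/PS1 mice 16975, 19554, 19723 and 19744, and APP/PS1/FTnKO mice 18943, 19394 and 19722.

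The other 4 members with the smallest p in APP/PS1 against WT did not pass the test. Rims3, a short RIM protein of the active zone, had 261, 269, 280, 253 and 227 CPM in the WT mice in the same order. In APP/PS1 mice it ran from 210 to 240 CPM with a median of 222, so that only the lowest WT mouse lay within their range, at a log2 fold change of -0.21 ± 0.07 SE (adjusted p = 0.186, edgeR). Bsn, the scaffold bassoon, had 642, 645, 585, 763 and 641 CPM in WT and a lowest, median and highest of 437, 493 and 686 in APP/PS1 mice (-0.30 ± 0.12, adjusted p = 0.269, edgeR). Both scaffolds of the pair stood lower on average with overlapping groups, since Pclo, piccolo, had 354, 345, 344, 455 and 358 CPM in WT and 231, 316 and 372 in APP/PS1 mice (-0.25 ± 0.11, adjusted p = 0.326, edgeR). With RIN as a covariate the log2 fold change of Bsn was -0.08 and that of Pclo -0.10, and the median over the members was -0.01. Cplx3, the complexin with the farnesylation motif, had 12.3, 14.3, 10.1, 13.2 and 10.7 CPM in WT and 11.2, 14.9 and 17.1 in APP/PS1 mice (0.27 ± 0.12, adjusted p = 0.344, edgeR).

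By role, no member other than Rims1 passed the test in APP/PS1 against WT. All 7 SNARE and disassembly genes, all 6 vesicle membrane genes, all 3 Rab3 genes, all 3 synapsins and all 3 endocytosis genes had log2 fold changes below 0. Their medians were -0.05 for the SNAREs, -0.08 for the vesicle membrane proteins, -0.13 for the Rab3 genes, -0.17 for the synapsins and -0.14 for the endocytosis genes. None passed the test, and the smallest adjusted p in these roles was 0.350, for Syn1, which coats vesicles of the reserve pool. Among the 8 general neuron markers all 8 were also below 0, with a median of -0.05, and among the 8 cortical excitatory markers 7 were, with a median of -0.12. Their part in the members' values was not tested. Microglial markers were the other way, with 3 of 6 higher past the threshold and summed levels of 327 to 534 CPM in APP/PS1 against 254 to 290 in WT mice. Of 6 astrocyte markers all were above 0 and 1 passed, Gfap at 2.78 (adjusted p = 0.000323, edgeR), with summed levels of 1450 to 2720 CPM in APP/PS1 against 1190 to 1310 in WT mice. The part of these glial markers in the members' values was not tested.

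**Figure D2:**
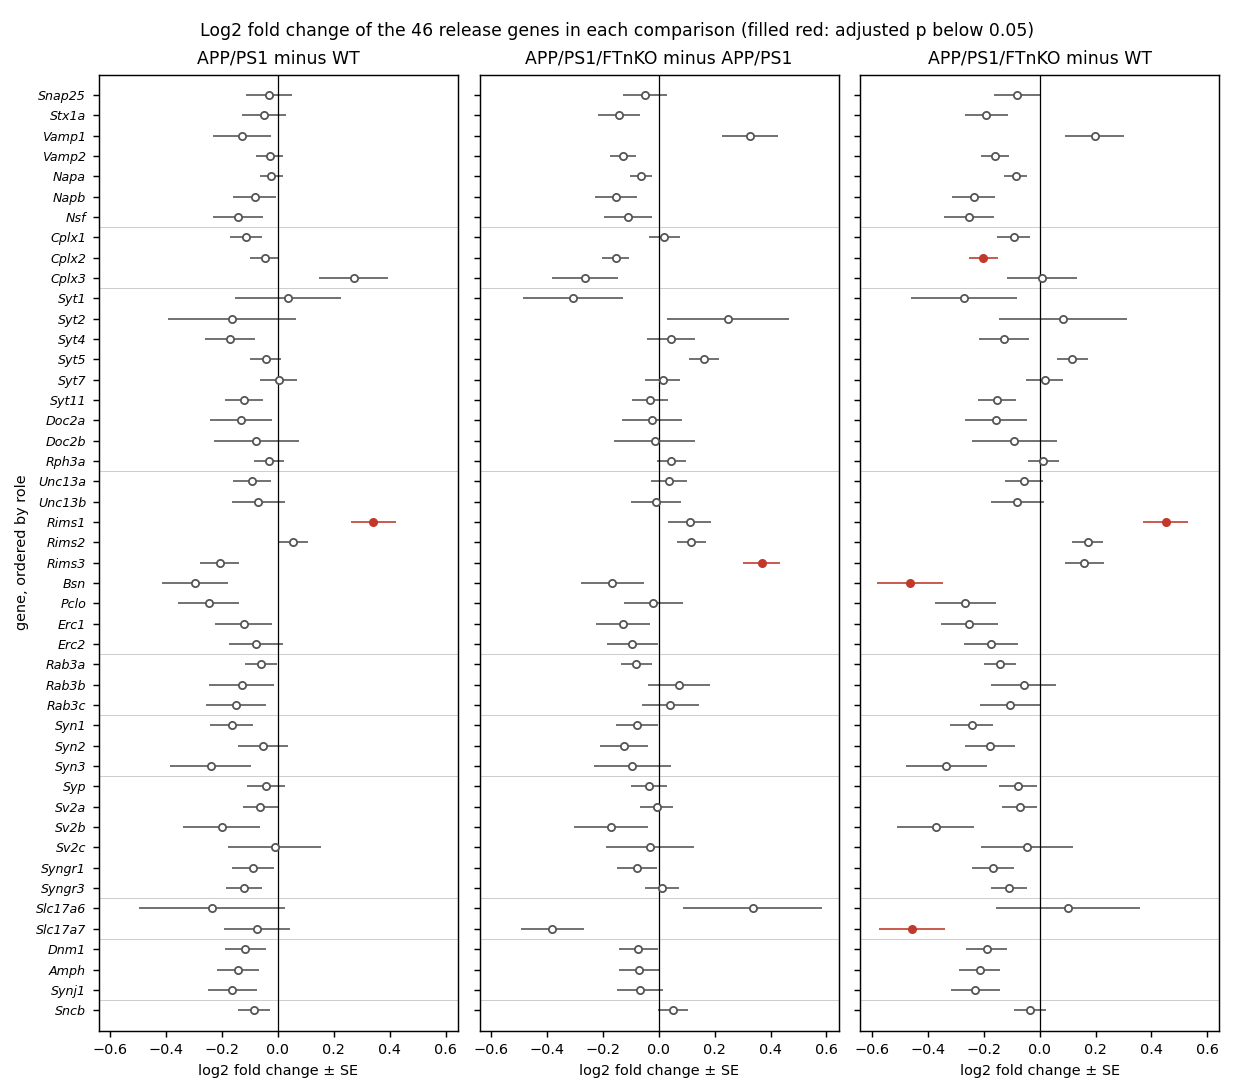
Log2 fold change of each of the 46 genes with its SE, in APP/PS1 minus WT, APP/PS1/FTnKO minus APP/PS1 and APP/PS1/FTnKO minus WT, ordered by role with thin lines between roles. Filled red points passed the adjusted p of 0.05, which are 1, 1 and 4 of the 46, and most other points in the outer panels lie below 0 (41 and 36 genes in all).

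In APP/PS1/FTnKO against APP/PS1 cortex, which differ by the Cre transgene and the neuronal knockout together, 1 of 46 members passed the test, Rims3. It rose. The Cre transgene and the knockout cannot be told apart in this comparison. All genes tested gave 0.327% past the threshold in either direction, 0.184% higher and 0.144% lower. Log2 fold changes were below 0 for 30 of 46 members, against 50.5% of all genes, with a median of -0.03 against -0.0016 for all genes. Unadjusted p was below 0.05 for 8 members (17.4%), 4 in each direction, against 11.5% of all genes (5.82% higher and 5.69% lower). Rims3 was the 1 member whose groups did not overlap, against 0.597% of all genes higher and 0.373% lower.

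Rims3 had a lowest, median and highest level of 210, 222 and 240 CPM in APP/PS1 mice. The corresponding values in APP/PS1/FTnKO mice were 244, 284 and 330 CPM. Every knockout mouse was above every APP/PS1 mouse, while the WT mice at 227 to 280 CPM overlapped both. The log2 fold change was 0.37 ± 0.07 SE (1.29-fold, adjusted p = 0.0241, edgeR), with log2 ratios of means of 0.42 in females and 0.32 in males. The adjusted p was 0.0162 with RIN as a covariate and 0.000124 by DESeq2. It was 0.172 with WT mouse 19622 included, 0.162 among mice with a RIN of at least 8 and 0.0634 with the WT mice left out of the fit. Leaving out any 1 of APP/PS1/FTnKO mice 18943 and 19394 or APP/PS1 mice 19553, 19554 and 19723 gave values of 0.0501 to 0.0808.

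The other 4 members with the smallest p in this comparison were Slc17a7, Vamp1, Cplx2 and Syt5. Slc17a7 loads glutamate into the vesicles of cortical excitatory neurons. It had 797, 1016 and 1389 CPM as lowest, median and highest in APP/PS1 mice and 633, 775 and 965 CPM in APP/PS1/FTnKO mice (log2 fold change -0.38 ± 0.11 SE, adjusted p = 0.177, edgeR). The groups overlapped. The adjusted p was 0.0494 by DESeq2, 0.0155 with RIN as a covariate and 0.884 with mouse 19622 included.

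Vamp1, the vesicle SNARE enriched in hindbrain, spinal cord and fast inhibitory neurons, had 128, 162, 150, 119 and 118 CPM in WT mice. It had 108, 124 and 143 CPM as lowest, median and highest in APP/PS1 and 124, 160 and 177 in APP/PS1/FTnKO mice (0.32 ± 0.10, adjusted p = 0.204, edgeR, and 0.0329 with RIN as a covariate). Cplx2, the complexin of excitatory terminals, had 1322, 1473 and 1537 CPM in APP/PS1 and 1273, 1315 and 1383 in APP/PS1/FTnKO mice (-0.15 ± 0.05, adjusted p = 0.218, edgeR, and 0.0288 by DESeq2). Both pairs of groups overlapped. Syt5, a calcium-binding synaptotagmin, had 160, 157, 160, 187 and 174 CPM in WT, 152, 159 and 181 in APP/PS1 and 169, 181 and 192 in APP/PS1/FTnKO mice (0.16 ± 0.05, adjusted p = 0.234, edgeR). Cplx3 was at 9.65 to 15.2 CPM in the knockout, with a log2 fold change of -0.26 ± 0.12 and an adjusted p of 0.403 by edgeR.

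By role, the 3 synapsins and the 3 endocytosis genes all had log2 fold changes below 0 in the knockout against APP/PS1, at medians of -0.09 and -0.07. The smallest adjusted p was 0.630 for the synapsins and 0.745 for the endocytosis genes. Of the Rab3 genes, which bind RIM on the vesicle, Rab3a was at -0.08 ± 0.05, Rab3b at 0.07 ± 0.11 and Rab3c at 0.04 ± 0.10. Of the RIM genes, Rims1 was at 0.11 ± 0.08 and Rims2 at 0.12 ± 0.05, and neither passed the test (adjusted p = 0.629 and 0.393, edgeR). The summed cortical excitatory markers had a lowest, median and highest of 3940, 4740 and 5490 CPM in the APP/PS1 group and 3340, 3590 and 4790 CPM in the knockout. No marker of that list passed the test, and its part in the values of Slc17a7 and Cplx2 was not tested. Microglial markers were below 0 in 6 of 6 at a median of -0.255, and astrocyte markers in 5 of 6 at a median of -0.09. None of these glial markers passed the test by edgeR (3 microglial and 1 astrocyte marker at an unadjusted p below 0.05). Their part in the members' values was not tested.

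**Figure D3:**
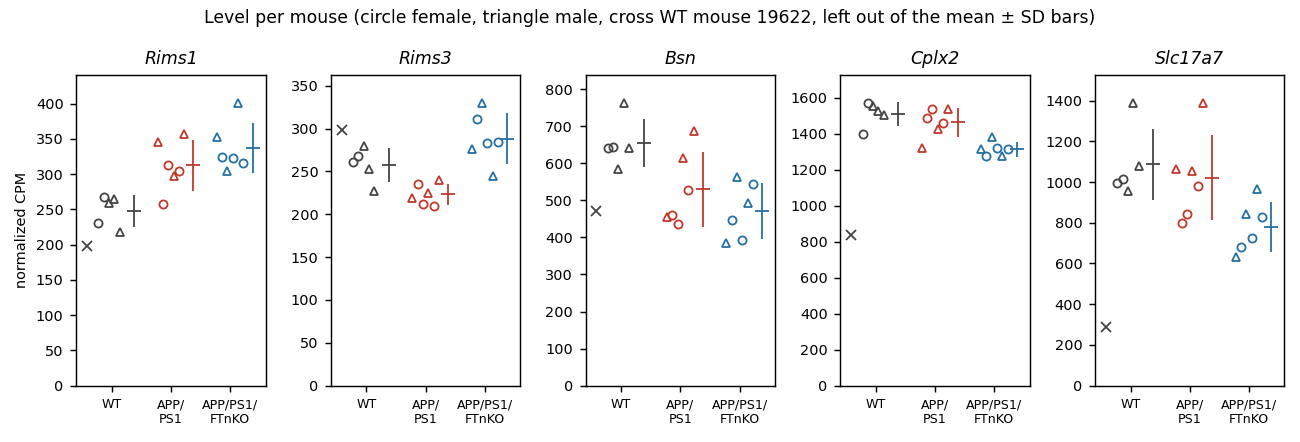
Normalized CPM per mouse of the 5 genes that passed a test, by genotype (circles female, triangles male), with the mean ± SD beside each group and WT mouse 19622 as a cross left out of the mean. All 6 knockout mice lie above all 6 APP/PS1 mice for Rims3 (244 to 330 against 210 to 240), and mouse 19622 lies far below the other WT mice for Slc17a7 (287 against 956 to 1389).

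APP/PS1/FTnKO against WT cortex sets the combined genotype against controls and shares its samples with both other comparisons, so its values are not a separate line of evidence. Of the 46 members, 4 passed the test (8.70%), against 3.87% of all genes. Rims1 rose, and Bsn, Cplx2 and Slc17a7 fell. Over all genes 2.22% were called higher and 1.65% lower. Log2 fold changes were below 0 for 36 members, against 48.7% of all genes, with a median of -0.12 against 0.01 for all genes. The general neuron markers were below 0 in 7 of 8 at a median of -0.08, with 0 past the threshold by edgeR (1 at an unadjusted p below 0.05). Of 6 astrocyte markers all were above 0 and 1 passed, Gfap at 2.53 (adjusted p = 0.00098, edgeR), and of 6 microglial markers 5 were above 0 and 1 passed, C1qa at 1.18 (adjusted p = 0.00445, edgeR). The part of these markers in the members' values was not tested. Unadjusted p was below 0.05 for 22 members (47.8%), 19 of them lower, against 22.1% of all genes (11.3% higher and 10.9% lower). The groups did not overlap for 1 member higher (Rims1) and 5 lower (Vamp2, Cplx2, Bsn, Syn1 and Dnm1), against 2.75% and 2.85% of all genes.

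Rims1 had a lowest, median and highest of 305, 323 and 401 CPM in APP/PS1/FTnKO mice, all above the highest WT mouse at 268 CPM. The log2 fold change was 0.45 ± 0.08 SE (1.37-fold, adjusted p = 0.00618, edgeR), with log2 ratios of means of 0.36 in females and 0.52 in males. It passed the test when each of the 17 mice was left out in turn (adjusted p = 0.00223 to 0.0265) and under the 13 other alternative settings (1.63e-05 to 0.0172). Of all calls among the members this was the one that held throughout.

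Bsn had 385, 469 and 562 CPM as lowest, median and highest in APP/PS1/FTnKO mice, all below the lowest WT mouse at 585 CPM. It fell by 0.46 ± 0.12 SE on the log2 scale (adjusted p = 0.0375, edgeR), and its log2 ratios of means were -0.48 in females and -0.47 in males. Its value was -0.34 on that scale with RIN as a covariate (adjusted p = 0.0308, edgeR), -0.39 among mice with a RIN of at least 8 (0.0525) and -0.41 with mouse 19622 included (0.0995). It was between 0.0645 and 0.107 when any 1 of WT mice 18944, 19053, 19718 and 19721 or APP/PS1/FTnKO mice 16974, 18943, 19394 and 19720 was left out.

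Cplx2 had 1400, 1571, 1551, 1524 and 1505 CPM in the WT mice and 1273, 1315 and 1383 as lowest, median and highest in APP/PS1/FTnKO mice, again without overlap. It fell by 0.20 ± 0.05 SE on the log2 scale (adjusted p = 0.0375, edgeR), with log2 ratios of means of -0.19 in females and -0.20 in males. The log2 fold change was -0.19 with RIN as a covariate (adjusted p = 0.0542, edgeR), -0.20 among mice with a RIN of at least 8 (0.0526) and -0.20 with no filter on low counts (0.0668), and with mouse 19622 included the log2 fold change was -0.09 (adjusted p = 0.722). It was between 0.0506 and 0.118 when any 1 of WT mice 19053, 19101, 19718 and 19721, APP/PS1 mouse 19553, or APP/PS1/FTnKO mice 16974, 18943, 19394 and 19720 was left out.

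Slc17a7 had 994, 1017, 956, 1389 and 1077 CPM in the WT mice and 633, 775 and 965 as lowest, median and highest in APP/PS1/FTnKO mice. The highest knockout mouse lay just inside the WT range. It fell by 0.46 ± 0.12 SE on the log2 scale (adjusted p = 0.0396, edgeR), with log2 ratios of means of -0.44 in females and -0.49 in males. Its value was -0.36 on that scale with RIN as a covariate (adjusted p = 0.0602, edgeR), -0.37 among mice with a RIN of at least 8 (0.0849) and -0.48 without the sex term (0.0508), and with mouse 19622 included the log2 fold change was -0.26 (adjusted p = 0.557). It was between 0.0513 and 0.118 when any 1 of WT mice 18944, 19053, 19718 and 19721 or APP/PS1/FTnKO mice 16974, 18943, 18973 and 19394 was left out. The summed cortical excitatory markers were 4330 to 5730 CPM in WT and 3340 to 4790 CPM in the knockout, with all 8 below 0 at a median of -0.19 and 0 of 8 past the threshold by edgeR (3 at an unadjusted p below 0.05). Camk2a, the abundant kinase of these neurons, was at -0.39 (adjusted p = 0.0983, edgeR). The part of these markers in the values of Slc17a7, Cplx2 and Bsn was not tested.

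Vamp2 came next in order of p. It had 922, 956, 907, 1017 and 996 CPM in WT mice and 806, 852 and 899 as lowest, median and highest in APP/PS1/FTnKO mice, without overlap (-0.16 ± 0.05 SE, adjusted p = 0.0774, edgeR). By DESeq2 it passed the test (adjusted p = 0.0139), as did Rims2, Napb and Syn1 beside the 4 members called by edgeR.

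By role, the 3 endocytosis genes were at log2 fold changes of -0.19 ± 0.07 SE for Dnm1, -0.21 ± 0.07 for Amph and -0.23 ± 0.09 for Synj1, each with an unadjusted p below 0.05 and none past the adjusted threshold (smallest adjusted p = 0.104, edgeR). The synapsins were at -0.24 ± 0.08 for Syn1, -0.18 ± 0.09 for Syn2 and -0.33 ± 0.14 for Syn3. Among the SNAREs 6 of 7 were below 0, with Nsf, the ATPase that disassembles the complex, at -0.25 ± 0.09 and Vamp1 the exception at 0.20 ± 0.11. Of the 6 vesicle membrane genes all were below 0, from Sv2c at -0.04 ± 0.17 to Sv2b at -0.37 ± 0.14. The 3 RIM genes among the members were above 0, of which only Rims1 passed the test, with Rims2 at 0.17 ± 0.05 (adjusted p = 0.0838, edgeR) and Rims3 at 0.16 ± 0.07 (adjusted p = 0.191, edgeR) beside Rims1. Rims4, a short RIM outside the members, fell past the threshold. The synaptotagmin, Doc2 and rabphilin genes were mixed, with 5 of 9 below 0, and β-synuclein (Sncb) was at -0.03 ± 0.06.

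Other genes of vesicle release were read from a list of 50 genes outside the members, of which 49 passed the filter. In APP/PS1 against WT 0 passed the test by edgeR (9 at an unadjusted p below 0.05, 18.4% against 14% of all genes, and 1 called by DESeq2), and 37 of 49 were below 0 with a median of -0.11. In APP/PS1/FTnKO against APP/PS1 0 passed by edgeR (6 at an unadjusted p below 0.05, 12.2% against 11.5% of all genes) or by DESeq2, and 32 of 49 were below 0 with a median of -0.05. In APP/PS1/FTnKO against WT 4 passed (8.16%, against 3.87% of all genes), all lower (against 1.65% of all genes). Unadjusted p was below 0.05 for 22 of 49 (44.9%, against 22.1% of all genes), 19 of them lower, and 37 of 49 were below 0 with a median of -0.14, values close to those of the members. The groups did not overlap for 9 of these 49 genes, all lower, against 2.85% of all genes lower and 2.75% higher. These were Cadps2, a priming factor of dense-core vesicles, at -0.50 ± 0.11 SE (adjusted p = 0.0160, edgeR), Synpr, a vesicle membrane protein related to synaptophysin, at -0.38 ± 0.09 (0.0260), Rims4, a short RIM, at -0.29 ± 0.08 (0.0472), and Nrxn2, a presynaptic neurexin, at -0.19 ± 0.05 (0.0474). Cadps2 ran from 67.5 to 85.1 CPM in WT and from 42.9 to 58.6 CPM in APP/PS1/FTnKO mice, without overlap. With mouse 19622 included 0 of the list passed by edgeR.

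Sex was examined because each group held mice of both sexes. Between females and males 0 of 46 members passed the test by edgeR (5 at an unadjusted p below 0.05), where 0.0689% of all genes passed and 6.7% had such a p, and 0 by DESeq2 (7 at an unadjusted p below 0.05). The smallest p belonged to Rph3a, the Rab3 effector rabphilin, at a log2 difference of -0.16 of females from males (adjusted p = 0.507 by edgeR and 0.0801 by DESeq2). For the interaction of sex with genotype 0 of 46 members passed in each of the 3 comparisons by edgeR (0 at an unadjusted p below 0.05) and by DESeq2 (at most 1 at an unadjusted p below 0.05), and 0% of all genes passed by edgeR, with 4.05%, 3.32% and 1.79% at an unadjusted p below 0.05 in the order of the comparisons above.

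WT mouse 19622, left out of the main tests above, had 9 members above and 19 below the range of the other 17 mice, and the remaining 18 within it. Against the mean of the other 5 WT mice, 12 members were at least 2-fold lower and 3 at least 2-fold higher. These are values of 1 library, described without a test. Its total count of 19330958 and its RIN of 8.6 lay within the ranges of the other mice.

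The 5 lowest members in mouse 19622 were Stx1a, Cplx3, Syt5, Erc2 and Unc13b. Stx1a, a plasma membrane syntaxin, was at 8.35 CPM in mouse 19622 (168 counts) against 237 to 310 in the other WT mice, 31.1-fold lower. Cplx3 was at 0.497 CPM (10 counts) against 10.1 to 14.3, and Syt5 at 17.8 against 157 to 187. Erc2, an active zone scaffold, was at 38.7 CPM against 153 to 187, and Unc13b, a Munc13 priming factor, at 23.6 against 83.7 to 111. Slc17a7 was at 287 CPM, 3.79-fold lower than the mean of the other WT mice.

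The 5 highest members in mouse 19622 were Syt2, Slc17a6, Vamp1, Doc2b and Erc1, of which the first 3 are known as the forms of brainstem and other subcortical neurons. Syt2 was at 635 CPM against 33.4 to 69.9 in the other WT mice, 12.1-fold higher. Slc17a6, the glutamate transporter of subcortical neurons, was at 120 CPM against 12.4 to 20.7, and Vamp1 at 640 against 118 to 162. Doc2b, a high-affinity calcium sensor, was at 84.9 CPM against 30.4 to 53.6, and Erc1 at 120 against 62.1 to 75.4. Per kilobase, the minor form had a larger share in it than in the other WT mice in 6 of 8 pairs, among them Syt2 at 56.8% of Syt1 and Syt2, Vamp1 at 30.0% of Vamp1 and Vamp2, Slc17a6 at 29.5% of both transporters and Erc1 at 65.0% of Erc1 and Erc2. Rab3b and Unc13b had smaller shares, at 2.69% of Rab3a and Rab3b (6.26% to 8.09% in the other WT mice) and 4.98% of Unc13a and Unc13b (8.59% to 10%).

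Snap25, Amph and Dnm1 lay in mouse 19622 within the range of the other 17 mice. Syp, the vesicle protein synaptophysin, was below it at 819 CPM against 938 to 1255, as were Vamp2 at 560 against 806 to 1064, Syn1 at 227 against 351 to 529, Syn2 and Unc13a. The 8 general neuron markers summed to 3310 CPM in it against 3110 to 3790, but each of them lay outside the 17-mouse range, with Map2, Thy1 and Tubb3 below it and Nefm, Nefl, Stmn2, Elavl4 and Rbfox3 above.

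**Figure D4:**
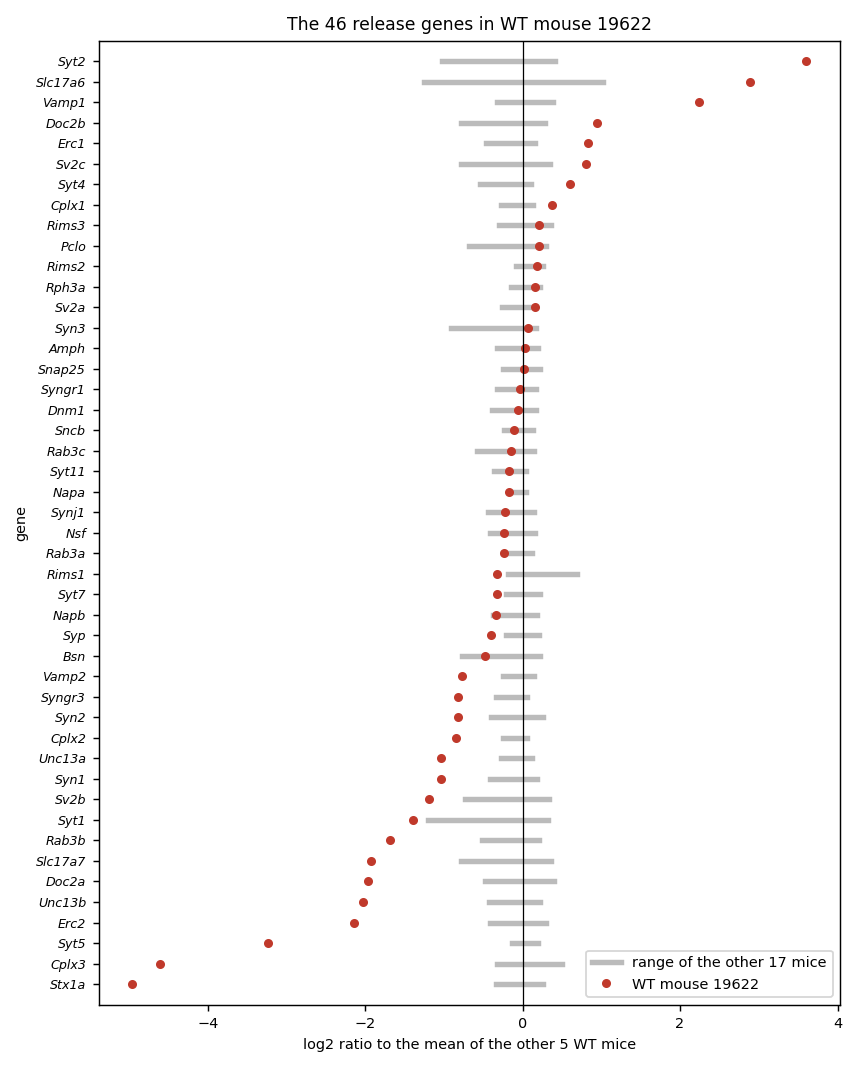
Log2 ratio of WT mouse 19622 to the mean of the other 5 WT mice for each of the 46 genes (red points), with the range of the other 17 mice as grey bars on the same scale. The points run from Stx1a at -4.96 to Syt2 at 3.60, with 19 genes below and 9 above the grey bars.

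Some members share exonic sequence with genes on the other strand. The largest such overlaps were 39.4% of the exonic bases of Doc2a with Ino80e, 16.8% of Syp with Gm14703, 14.5% of Syt4 with Gm26658 and 14.1% of Syn3 with Timp3. Libraries were stranded, but whether counting used the strand is not stated in the labels or methods, so the levels of these members are less certain. Of the 5 members that passed a test, only Bsn had an annotated exonic overlap, of 0.358% with a microRNA gene on its own strand.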

How the data were processed

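Frontal cortex RNA of 18 mice was sequenced from stranded mRNA libraries (150-base paired-end reads). Per the study's methods and the submitters' processing notes, the authors used Trimmomatic 0.33 for trimming, HISAT2 2.1.0 for alignment to GRCm38 and featureCounts for counting per gene (no version or strand setting named). The deposited values are raw counts per gene; no other unit was used, and 0 sample columns were left out of the mapping to the labels.

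Counts were tested with edgeR 4.0.16 (R 4.3.3): filterByExpr with a minimum count of 10, TMM scaling, and the quasi-likelihood test with sex and genotype as terms in 1 fit of 17 mice. WT mouse 19622 was left out. P-values were adjusted by the Benjamini-Hochberg method over all 17414 genes, with a threshold of 0.05. Levels are TMM-normalized counts per 1000000 counted reads (CPM), and fold changes are edgeR's, not ratios of printed means. Mouse 19622 was put on the same scale with the same reference library. Nothing in the labels says whether samples were prepared on separate days, and the mice are the replicates. DESeq2 1.42.0, limma-voom (limma 3.58.1) and other settings served as alternatives. The pipeline was tested on simulated data.

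Values are given for each member past the threshold, the 5 smallest p in each comparison, and the 5 members farthest from the other WT mice in each direction in mouse 19622. Members and gene lists were chosen with earlier results of these data known. A planned rule for proteins with a prenylation motif was not applied, since no protein table was used here. Positions and exon lengths came from GENCODE M21 and promoter windows from RefSeq (GRCm38.p6).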

Additional observations from a re-analysis of the deposited data

Results flagged for a closer look

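For 9 of 138 combinations of member and genotype, 1 mouse stood far from the rest of its group, its gap to the nearest being large beside the group's whole range. Chance gives such a mouse in about 1 in 20 groups. WT mouse 19718 accounted for 4 of them, all high: Stx1a at 310 CPM (next 256), Rph3a at 549 (next 457), Pclo at 455 (next 358) and Slc17a7 at 1389 (next 1077). WT mouse 19721 was high for Sv2a at 586 CPM (next 553), and APP/PS1 mouse 19744 was high for Vamp2 at 1064 (next 949). Among APP/PS1/FTnKO mice, mouse 19720 was low for Syt2 at 25.8 CPM (next 57.6) and high for Syt7 at 479 (next 416), and mouse 16974 was high for Slc17a6 at 32.9 (next 15.7). Without mouse 19718 the calls of Bsn, Cplx2 and Slc17a7 in APP/PS1/FTnKO against WT were lost (adjusted p = 0.107, 0.0887 and 0.118, edgeR), at log2 fold changes of -0.42, -0.20 and -0.38 against -0.46, -0.20 and -0.46 with it. This mouse did not stand apart for Bsn or Cplx2, and leaving out any 1 of several other mice lost these calls as well.

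WT mouse 19622, which the main comparisons left out, had cerebellar markers summing to 3420 CPM, 52.2-fold above the highest of the other 17 mice at 65.4 CPM.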

How the results depend on the processing

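The 17 mice of the main test were compared with 13 other settings and with each mouse left out in turn. Counts below are in the order APP/PS1 against WT, APP/PS1/FTnKO against APP/PS1, APP/PS1/FTnKO against WT, beside main counts of 261, 57 and 674 genes in all, 1, 1 and 4 members and 0, 0 and 4 other release genes. With mouse 19622 included, 207, 2 and 261 genes, 1, 0 and 1 members and 0, 0 and 0 other release genes were called. DESeq2 called 468, 253 and 1321 genes, 1, 3 and 8 members and 1, 0 and 11 others on 17 mice, and 427, 37 and 892 genes, 1, 1 and 2 members and 0, 0 and 7 others on 18. With no filter 452, 104 and 971 genes, 1, 2 and 4 members and 0, 0 and 9 others were called, and the 4 members held 3 of the main 4, with Sv2b in place of Cplx2. With RIN as a covariate the counts were 84, 261 and 388 genes, 0, 3 and 2 members and 0, 3 and 2 others, and among mice with a RIN of at least 8 they were 120, 14 and 368 genes, 0, 0 and 1 members and 0, 0 and 1 others. Without the sex term 0 members were called in APP/PS1 against WT, and Slc17a7 was not called in the third comparison. With only the 2 genotypes compared, 0 members were called in the first comparison, 0 members and 5 genes in the second. Upper-quartile scaling called 2 other release genes in the third. The cause of these differences was not tested. The member median stayed below 0 in every setting run. In APP/PS1 against WT, however, most of its size was lost with RIN as a covariate, as given above.

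Leaving out 1 mouse gave 124 to 465, 10 to 81 and 206 to 987 genes, 0 to 1, 0 to 1 and 1 to 6 members and 0 to 1, 0 to 0 and 0 to 8 others. No paired analysis was possible because the labels give no replicate numbers that tie mice across groups. The member with the fewest counts, Cplx3 (mean count 239), did not have the largest SE in any comparison, and what depth limits was not tested.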
